A study of Homo sapiens with 6 samples.

Results

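Messenger RNA was sequenced from U2OS cells, a human osteosarcoma line, and the 36 genes described here are regulators and machinery of G2 and mitosis, the stages of the cell cycle between DNA replication and cell division. The genes were taken from a list by symbol, and no measured value entered the rule. Earlier results of these data were known when the list was made. All 36 genes were found by Ensembl identifier among the 67140 genes counted. The series held 6 libraries in 3 groups of wild-type cells: untreated control cells, cells given Adriamycin (doxorubicin) at 1.5 µg/ml, and cells given etoposide at 100 µM, each drug for 4 h and each group with 2 libraries. Both drugs poison topoisomerase II, the enzyme that untangles DNA by cutting and rejoining it.

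The etoposide tables held 21450766 and 14244235 counts over the whole list. Between 220 and 292 genes at the start of the list, on chromosome 1, were analysed in the control and Adriamycin libraries, and 0 of the 36 genes are among them. The values below are therefore levels in etoposide-treated cells, and no gene was compared between treatments. Nothing in the labels says that the libraries of a group came from separate cultures, so the spread given here is that between 2 libraries and may be technical. In RNA of a whole culture, fewer cells in G2 and mitosis and less of an RNA in each such cell cannot be told apart.

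The labels give the tissue as bone and the cell type as epithelial. Of 9 mesenchymal and osteoblast genes, 4 lay above the median of expressed genes. These were COL1A1, SPARC, VIM and FN1, all above the 90th percentile. ALPL, RUNX2 and SPP1 lay under the median, at percentiles 47.9, 15.5 and 5.14. COL1A2 had 5 and 2 counts and BGLAP, the osteocalcin gene, had 8 and 2. Of 8 epithelial genes, 5 had at least 10 counts in both libraries and none reached the upper quartile. EPCAM (293 and 169 counts) and CLDN4 (615 and 356 counts) lay above the median of expressed genes, whereas KRT19 and ESRP1 had at most 1 count in a library. Of the blood cell markers, HBB had 0 counts in both libraries and PTPRC had 6 in each.

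Entry into mitosis is driven by the kinase CDK1 bound to cyclin B. WEE1 and PKMYT1 hold CDK1 inactive by phosphorylation and CDC25 phosphatases reverse this, and the DNA damage checkpoint acts on this switch. The spindle assembly checkpoint then keeps CDC20 from activating the anaphase-promoting complex until the chromosomes are attached, after which securin and cyclin B are degraded and separase opens cohesin. Many of the genes are transcribed late in the cell cycle under FOXM1, B-MYB and the MuvB complex.

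Levels are given in TPM: counts divided by the length of a gene's merged exons and scaled to a sum of 1000000 in each library, so that genes of different lengths can be set side by side. Ratios between genes use this length unless another is named, and several moved with another choice of length. None of the 36 genes fell under 10 counts in a library. Together they took 78884 and 52632 counts, or 0.368% and 0.370% of each library. Their median level was 61.4 TPM in library 1 and 65.9 TPM in library 2, beside medians of 11.9 and 12.7 TPM over the 17148 annotated genes that reached 10 counts in each library, called expressed genes below. By their means over both libraries, 34 genes lay above the median of those expressed genes (12.3 TPM), 30 above the upper quartile (37.2 TPM) and 12 above the 90th percentile (92.8 TPM). When protein-coding genes alone were ranked, 32 lay above their median and 23 above their upper quartile. The levels ran from 1.74 TPM for PRC1 to 395 TPM for CDC20, a 227-fold range, and the 5 highest genes held 37.7% and 37.4% of the summed TPM of the 36. Between the libraries the coefficient of variation of a gene's TPM had a median of 4.03% and ran from 0.142% for BUB1B to 11.2% for AURKB.

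**Figure D1:**
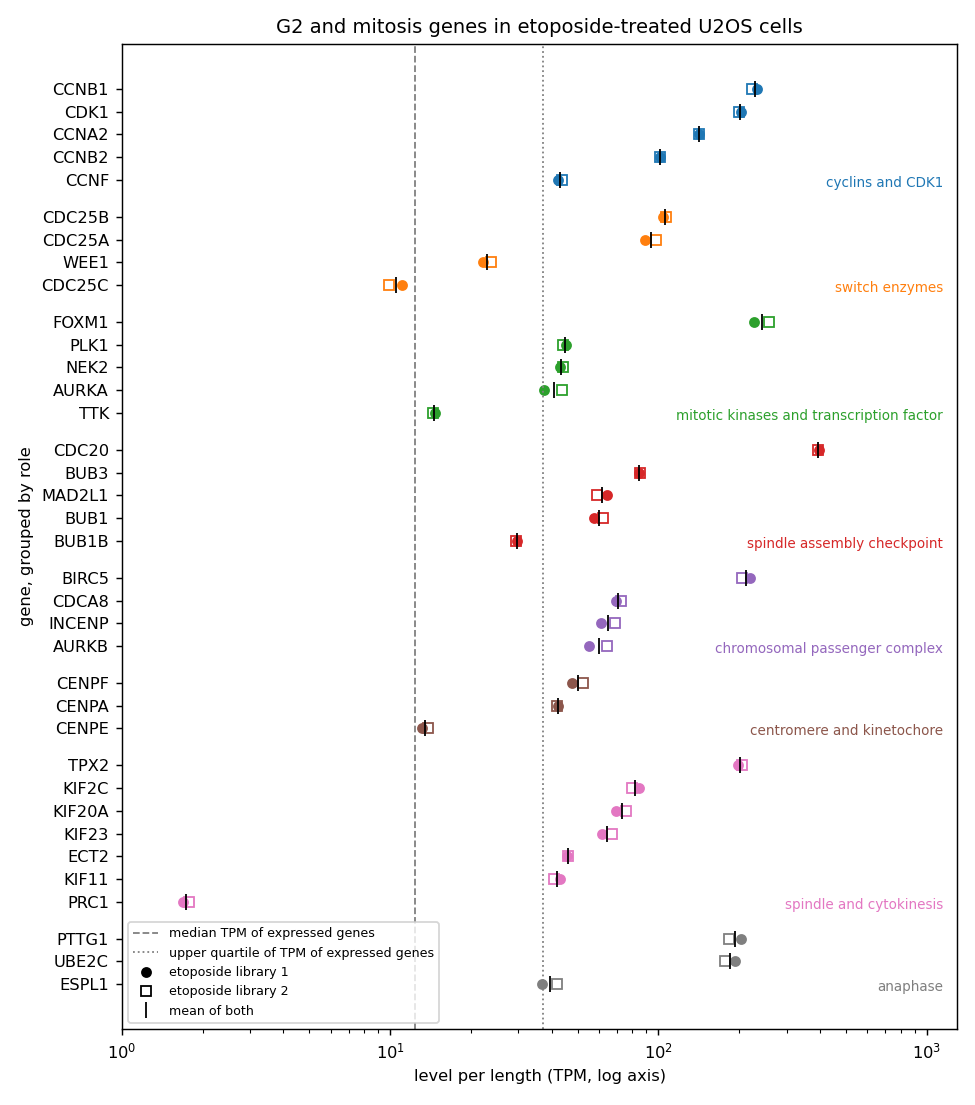
Level of each of the 36 genes in the 2 etoposide libraries, grouped by role, on a log axis of TPM, with filled circles for library 1, open squares for library 2 and bars for their mean. The dashed and dotted lines mark the median (12.3 TPM) and the upper quartile (37.2 TPM) of expressed genes, and PRC1 at 1.74 TPM stands far to the left of the other genes.

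CDK1 and its cyclins were among the higher genes, with a median of 141 TPM and all 5 above the upper quartile. CCNB1, the main mitotic cyclin, was measured at 232 TPM in library 1 and 224 TPM in library 2. CDK1, its catalytic partner, had 204 and 200 TPM. CCNA2, which acts from S phase to early mitosis, had 142 and 141 TPM. The libraries of these 3 genes did not overlap each other's, so their order, CCNB1 above CDK1 above CCNA2, was larger than the spread between libraries, although it rests on the exon length used: CDK1 was 0.876 and 0.892 times CCNB1 with merged exons and 1.47 and 1.49 times CCNB1 with the longest annotated transcript. CCNB2, the second cyclin B, stood at 102 and 101 TPM, which put CCNB1 2.29 and 2.21 times higher. CCNF, the cyclin that serves as a substrate receptor of an SCF ubiquitin ligase, was lowest of the group at 42.1 and 43.7 TPM.

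The enzymes of the CDK1 switch were spread widely. CDC25B, the phosphatase that helps start mitosis, had 104 and 107 TPM. CDC25A, which acts at both the start of S phase and of mitosis, had 88.8 and 98.2 TPM. CDC25C, by contrast, had 11.1 and 9.93 TPM from 230 and 134 counts, so that CDC25B stood 9.37 and 10.8 times above it, and CDC25C was one of the 2 genes of the 36 under the median of expressed genes. Exons of CDC25C overlap those of FAM53C, which had 3078 and 2332 counts. The inhibitory kinase WEE1 was measured at 22.2 and 23.8 TPM. PKMYT1, the membrane-bound kinase of the same family and not one of the 36, had 153 and 153 TPM, which was 6.90 and 6.41 times the level of WEE1.

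Among the mitotic kinases, PLK1, NEK2 and AURKA were close together. PLK1, which acts on centrosomes, kinetochores and cytokinesis, had 45.2 and 44.1 TPM. NEK2, which separates centrosomes, had 42.8 and 43.9 TPM. AURKA, the Aurora kinase of centrosomes and spindle poles, had 37.5 and 43.9 TPM, and its library values overlapped those of its neighbours in the order. TTK (MPS1), the kinase that starts checkpoint signalling at kinetochores, was lower in both libraries, at 14.7 and 14.5 TPM. The transcription factor FOXM1, placed in the same group, was the second highest of the 36 genes by its mean, at 226 and 259 TPM, and its libraries differed by more than those of most of the 36 (coefficient of variation 9.56%).

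The spindle assembly checkpoint genes held both the highest level of the 36 and one of the lower ones. CDC20, the activator of the anaphase-promoting complex that the checkpoint restrains, was measured at 397 and 392 TPM and lay at percentile 98.4 of expressed genes. The parts of the complex that inhibits it were lower: BUB3 had 84.7 and 85.2 TPM. MAD2L1 (MAD2) had 64.2 and 59.1 TPM. Set against these, CDC20 was 4.69 and 4.61 times BUB3 and 6.18 and 6.64 times MAD2L1. BUB1B (BUBR1) was lowest of the group at 29.6 and 29.6 TPM, and CDC20 was 13.4 and 13.3 times as high. BUB1, the kinase related to BUB1B that recruits the others to kinetochores, had 57.6 and 62.1 TPM, 1.946 and 2.101 times BUB1B.

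The chromosomal passenger complex corrects wrong attachments of chromosomes and takes part in cytokinesis. Its kinase AURKB had 55.1 and 64.5 TPM. The scaffold INCENP had 61.0 and 68.9 TPM. CDCA8 (borealin), a targeting subunit, had 69.4 and 72.4 TPM. These 3 subunits lay within a narrow band, and the library ranges of AURKB and INCENP overlapped. BIRC5 (survivin), the subunit that binds phosphorylated histone H3, stood apart at 220 and 205 TPM, 3.17 and 2.83 times CDCA8 and 4.00 and 3.18 times AURKB.

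At the centromere, the histone H3 variant CENPA had 42.2 and 41.9 TPM. CENPF, a large protein of the outer kinetochore, had 47.8 and 52.4 TPM. The motor protein CENPE was 13.2 and 13.9 TPM and lay near the median of expressed genes, at percentile 52.2, below the other 2 centromere genes in both libraries.

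Of the 7 spindle and cytokinesis genes, TPX2, which assembles spindle microtubules and activates AURKA, was highest at 197 and 204 TPM, or 5.26 and 4.65 times AURKA. KIF2C (MCAK), which takes microtubules apart at centromeres, had 84.4 and 79.5 TPM. KIF20A, which moves the passenger complex to the spindle midzone, had 69.7 and 76.0 TPM. KIF23, the motor of centralspindlin, had 61.8 and 67.4 TPM, and its range overlapped that of MAD2L1 but not that of KIF20A. ECT2, the exchange factor that activates RhoA at the cleavage site, had 45.5 and 46.1 TPM. KIF11 (EG5), the motor that pushes spindle poles apart, had 43.0 and 40.7 TPM. PRC1, which bundles midzone microtubules, was lowest of the 36 by far, with 58 and 40 counts, or 1.69 and 1.79 TPM, at percentile 13.3.

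PRC1 (ENSG00000198901, chromosome 15, bases 90966040 to 90995629, minus strand) was also the gene whose counts were hardest to assign. A further protein-coding gene of the same strand, ENSG00000284946, covers 57.6% of its exon bases and had 142 and 93 counts. PRC1-AS1, a noncoding RNA of the opposite strand, covers 34.3% and had 23 and 15 counts. Only 38.2% of the exon bases belong to PRC1 alone, and 1 of the 36 genes was under 50% by this measure, beside 4.71% of expressed genes, while 24 of the 36 were at 100%. With its counts divided by those bases alone PRC1 came to 3.41 and 3.54 TPM, still the lowest of the 36. The counting option for reads that fall on more than one gene is not given in the sources used here, and its part in the low count of PRC1 was not tested.

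In anaphase, securin is removed so that separase can cut cohesin. PTTG1 (securin) had 203 and 184 TPM. ESPL1 (separase), which it holds inactive, had 36.8 and 42.0 TPM, so the inhibitor's RNA was 5.53 and 4.38 times that of the enzyme. UBE2C, the ubiquitin-conjugating enzyme that starts chains for the anaphase-promoting complex, had 192 and 177 TPM. PTTG1 and UBE2C overlapped between libraries and both lay well above ESPL1.

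In the order of the levels, 21 of the 35 neighbouring pairs did not overlap between libraries. The order was taken from the same 2 libraries and the same share over all expressed genes was not computed, so this count is a description only. The overlapping neighbours fell into runs: FOXM1 with CCNB1; CDK1, TPX2, PTTG1 and UBE2C; KIF20A with CDCA8; INCENP, KIF23, MAD2L1, BUB1 and AURKB; and NEK2, CCNF, CENPA, KIF11, AURKA and ESPL1. CDC20 at the top was 1.76 and 1.52 times FOXM1 below it. With the longest annotated transcript as the length, CDC20 was again first and PRC1 last, CDK1 moved from the fifth place to the second, and the order over the 36 genes had a Spearman rho of 0.960 with that of merged exons, which is a description across genes that share the same 2 libraries.

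The promoters of the 36 genes were searched for letters that the choice of the genes did not use. The cell cycle genes homology region (CHR), with the core TTTGAA, is bound by MuvB complexes, CCAAT is bound by NF-Y, and TTTCCCG or TTTGGCG is the core of an E2F site. RefSeq promoters of build GRCh38.p14, from 250 bases before to 50 after each start, were matched by symbol for 28 of the 36 genes in 38 windows, and 6 genes had more than 1 window. AURKA, FOXM1, TTK, BIRC5, UBE2C, TPX2, WEE1 and BUB3 had no entry. Below, the bases from -250 to -21 before the start are shown for CCNB2 and CDC20 as examples with both motifs, CCNB1 with CCAAT but no TTTGAA, CDK1 with both motifs farther from this start, ESPL1 with CCAAT on the opposite strand, and KIF2C with neither. They lie on the plus strand at chr15:59104896-59105125 (CCNB2), chr5:69166900-69167129 (CCNB1), chr1:43358731-43358960 (CDC20), chr10:60778081-60778310 (CDK1, the first of 2 starts), chr12:53268049-53268278 (ESPL1) and chr1:44739587-44739816 (KIF2C). Capitals mark TTTGAA and CCAAT on either strand, so TTCAAA and ATTGG are the same letters read on the other strand.
CCNB2: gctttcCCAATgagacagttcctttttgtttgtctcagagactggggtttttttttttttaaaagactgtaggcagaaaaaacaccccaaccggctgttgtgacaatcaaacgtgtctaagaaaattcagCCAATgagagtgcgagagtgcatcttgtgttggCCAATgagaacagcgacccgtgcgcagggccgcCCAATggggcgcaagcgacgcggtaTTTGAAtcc
CCNB1: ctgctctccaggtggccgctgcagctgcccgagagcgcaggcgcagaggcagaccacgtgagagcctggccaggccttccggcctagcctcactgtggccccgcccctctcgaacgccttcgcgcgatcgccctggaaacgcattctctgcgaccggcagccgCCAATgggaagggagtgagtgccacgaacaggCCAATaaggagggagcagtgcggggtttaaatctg
CDC20: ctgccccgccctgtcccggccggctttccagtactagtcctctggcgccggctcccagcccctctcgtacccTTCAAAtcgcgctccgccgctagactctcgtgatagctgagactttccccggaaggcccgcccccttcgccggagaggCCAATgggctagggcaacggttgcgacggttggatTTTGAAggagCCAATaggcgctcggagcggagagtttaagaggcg
CDK1: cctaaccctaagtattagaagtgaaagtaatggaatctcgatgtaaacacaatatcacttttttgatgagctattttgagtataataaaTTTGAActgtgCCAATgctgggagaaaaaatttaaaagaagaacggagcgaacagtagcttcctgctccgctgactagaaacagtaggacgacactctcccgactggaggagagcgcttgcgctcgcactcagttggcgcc
ESPL1: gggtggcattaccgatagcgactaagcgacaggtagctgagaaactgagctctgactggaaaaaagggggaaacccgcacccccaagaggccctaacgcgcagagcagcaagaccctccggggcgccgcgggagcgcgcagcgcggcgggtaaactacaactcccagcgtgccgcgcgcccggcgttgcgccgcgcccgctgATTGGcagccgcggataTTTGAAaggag
KIF2C: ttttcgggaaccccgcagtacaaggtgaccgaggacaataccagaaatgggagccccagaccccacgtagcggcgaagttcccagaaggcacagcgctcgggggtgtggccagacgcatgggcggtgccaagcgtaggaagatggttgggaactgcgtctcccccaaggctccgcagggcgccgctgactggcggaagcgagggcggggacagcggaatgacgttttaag

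In CCNB2, TTTGAA lies 29 to 24 bases before the start, and CCAAT begins 244, 120, 87 and 54 bases before it. CCNB1 holds CCAAT at similar places, 87 and 55 bases before its start. CDC20 has TTTGAA from -65 to -60, and again on the opposite strand from -178 to -173, with CCAAT at -100 and -55. In ESPL1 the letters of TTTGAA run from -31 to -26 behind a CCAAT on the opposite strand from -48 to -44. A match of this kind is a run of letters and not a measured binding site.

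Over the 28 genes with a promoter, 17 (60.7%) held TTTGAA on either strand, beside 18.2% of all 27305 genes with such windows. CCAAT was found in 25 (89.3%), beside 39.7% of all genes, and the 3 without it were BUB1B, CENPE and KIF2C. Both occurred in 16 (57.1%), beside 7.26% of all genes. An E2F core was found in 3 genes, CDC25A, CENPA and KIF11 (10.7%, beside 7.30% of all). The matches share bases in CDCA8, where TTTGAA and an opposite-strand CCAAT overlap by 1 base, and windows of a gene with several starts can overlap. Of the 38 windows, 11 (28.9%) had a TTTGAA beginning within the last 50 bases before the start, beside 2.56% of all 35116 windows. CCAAT began between -100 and -51 in 20 windows (52.6%), beside 12.9% of all.

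**Figure D2:**
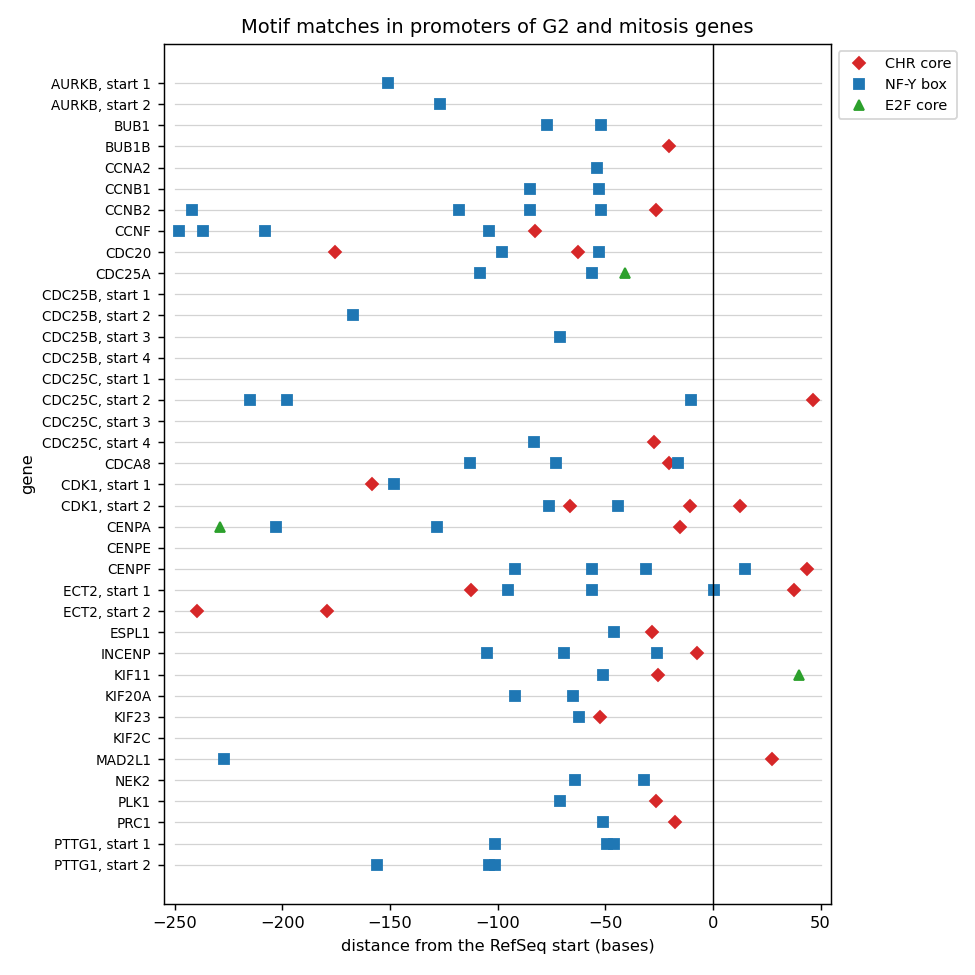
Position of motif matches on either strand in the 38 promoter windows of 28 genes, in bases from the RefSeq start, with diamonds for the CHR core, squares for the NF-Y box (CCAAT) and triangles for the E2F core. The CHR cores gather just before the start (11 windows within the last 50 bases) and the NF-Y boxes behind them (20 windows between -100 and -51).

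The levels of genes with and without TTTGAA overlapped. Genes with TTTGAA ran from 1.74 TPM (PRC1) to 395 TPM (CDC20) with a median of 45.8 TPM (n = 17), and genes without it from 13.5 TPM (CENPE) to 228 TPM (CCNB1) with a median of 82.0 TPM (n = 11).

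A further list of 105 G2 and mitosis genes and a list of 36 genes of the start of S phase and replication were set beside them. The other G2 and mitosis genes had TTTGAA in 48 of 92 promoters of genes (52.2%), CCAAT in 54 (58.7%) and an E2F core in 23 (25%). The replication genes had TTTGAA in 2 of 31 (6.45%), CCAAT in 19 (61.3%) and an E2F core in 19 (61.3%). CDC25A, which holds an E2F core, stands in both the 36 described here and the replication list.

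**Figure D3:**
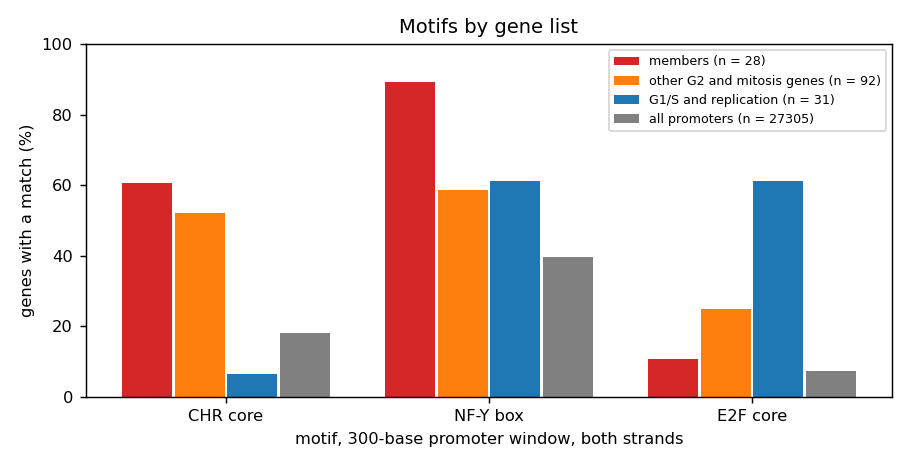
Share of genes with a match in a promoter window of 300 bases, either strand, for the 28 genes with a promoter, the 2 other lists and all 27305 genes. The bars for the CHR core are 60.7%, 52.2%, 6.45% and 18.2%, and those for the E2F core 10.7%, 25%, 61.3% and 7.30%.

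In level, the other 105 G2 and mitosis genes had a median of 49.3 TPM, and 104 of them had at least 10 counts in both libraries. Of these 105, 91 lay above the median of expressed genes, 61 above the upper quartile and 19 above the 90th percentile. The replication genes had a median of 107 TPM, with 29 of 36 above the upper quartile and 21 above the 90th percentile. Their highest was PCNA, the sliding clamp of DNA polymerase, at 1041 and 981 TPM, then FEN1, the flap endonuclease, at 509 and 481 TPM, and the lowest was POLA1 at 8.43 and 9.53 TPM. The 3 lists were compared as descriptions only.

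The partners of the 36 genes in their own complexes were also uneven. Among the anaphase-promoting complex and its partners (17 genes, median 37.2 TPM), UBE2S, which extends the chains that UBE2C starts, had 426 and 375 TPM, 2.22 and 2.12 times UBE2C. The subunit ANAPC11 had 99.0 and 85.0 TPM and ANAPC10 was lowest at 1.49 and 1.31 TPM. In the MuvB and DREAM group (12 genes, median 21.7 TPM), MYBL2 (B-MYB) had 430 and 421 TPM, 1.90 and 1.63 times FOXM1. TFDP1, the partner of E2F proteins, had 254 and 241 TPM, and LIN37, a MuvB subunit, was lowest with 15 and 9 counts. LIN37 was the one gene of the 105 under 10 counts in a library, and 46.0% of its exon bases belong to it alone.

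Condensin genes (8 genes, median 62.5 TPM) were led by NCAPD2 at 234 and 255 TPM and NCAPH2 at 134 and 124 TPM, with NCAPD3 lowest at 10.4 and 12.2 TPM. Outer kinetochore genes (14 genes, median 50.7 TPM) were led by ZWINT at 368 and 351 TPM and ZW10 at 87.3 and 85.8 TPM, with NSL1 lowest at 8.94 and 8.93 TPM. The highest and lowest genes of both groups differed by far more than their libraries did. The genes of the inner centromere and of CENPA loading (17 genes, median 41.0 TPM) ran from CENPP at 3.31 and 4.37 TPM to MIS18A at 187 and 187 TPM, next to CENPM at 127 and 127 TPM. Other entry and cohesion regulators (15 genes, median 70.9 TPM) ran from MAD1L1 at 1.98 and 2.38 TPM to PBK at 172 and 152 TPM and CKS2, a small subunit that binds CDK1, at 263 and 225 TPM. Other spindle and cytokinesis genes (22 genes, median 53.0 TPM) ran from NUSAP1 at 2.76 and 2.12 TPM to SKA2 at 106 and 100 TPM and ANLN (anillin) at 99.6 and 108 TPM. OIP5, of the inner centromere group, NUSAP1, MAD1L1 and CENPP have 7.49%, 13.2%, 56.8% and 56.8% of their exon bases to themselves, so their counts, like those of PRC1, can depend on how shared reads were treated. With the same counts divided by those bases alone, OIP5 moved from a mean of 36.7 to 374 TPM, above MIS18A (143 TPM) as the highest of its group, and NUSAP1 from 2.44 to 14.2 TPM.

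**Figure D4:**
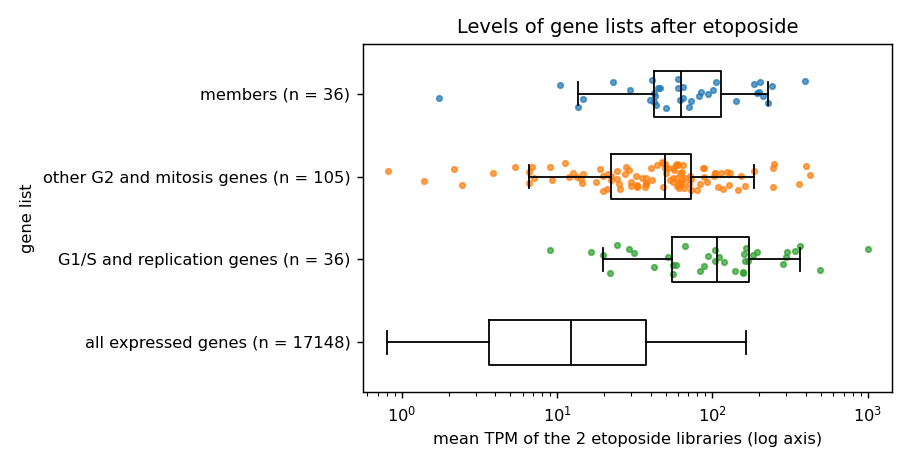
Mean TPM of the 2 etoposide libraries on a log axis for the 36 genes (members), 105 other G2 and mitosis genes, 36 replication genes and 17148 expressed genes. Points are genes, boxes run from the lower to the upper quartile with a line at the median (63.1, 49.3, 107 and 12.3 TPM), and whiskers span the 5th to the 95th percentile.

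In the cyclin A, cyclin B, Aurora and securin families the genes described here had the higher levels. CCNA1, the germline cyclin A, had 4 and 2 counts beside 2423 and 1573 for CCNA2. CCNB3 had 49 and 31 counts, or 1.45 and 1.41 TPM, well under CCNB1 and CCNB2. AURKC, the Aurora kinase of germ cells, had 3.04 and 1.84 TPM, and AURKB was 1.47 and 1.47 times AURKA. WEE2 had 3 and 2 counts and PTTG2 had 2 and 1. The Polo family went the other way: PLK2, a stress-responsive member, had 178 and 183 TPM, 3.95 and 4.14 times PLK1. PLK3 had 77.3 and 86.1 TPM and PLK4, the kinase of centriole duplication, 37.4 and 37.2 TPM, while PLK5 had 8 counts in each library. CDC20 was 17.42 and 17.98 times FZR1, the other activator of the anaphase-promoting complex, which had 22.8 and 21.8 TPM. CDK1 was 1.68 and 1.78 times CDK2, which had 121 and 112 TPM.

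Copies with a similar sequence could share reads with 11 of the 36 genes, for which the annotation names 20 copies that match at 63.1% (BUB1P1) to 97.7% (MAD2L1P1) of aligned bases. Of these copies 8 had 0 counts in both libraries, 8 had 1 to 9 counts at most, and 4 reached 10 counts in a library. NEK2P2, NEK2P1 and NEK2P4, which match NEK2 at 93.6%, 94.1% and 93.7% of aligned bases, had 74 and 42, 28 and 18, and 20 and 14 counts, beside 826 and 551 for NEK2. UBE2CP5, at 84.4% identity, had 64 and 25 counts beside 1539 and 923 for UBE2C. The closest copies, MAD2L1P1 and CDC20P1 (96.3%), had 1 and 2 counts and 0 and 0 counts. These counts are small beside those of the genes, but how reads with several matches were counted is not given in the sources used here. The values of NEK2, UBE2C and the other genes with copies are therefore uncertain, and the counts of the copies do not show by how much. Exons of 12 of the 36 genes overlap another gene in 17 pairs, 12 of them on opposite strands. After PRC1 the largest overlaps were those of FOXM1 with ITFG2 (15.9% of FOXM1's exon bases, 465 and 413 counts) and of PLK1 with ENSG00000261266 (11.6%, 3 and 0 counts). CCNA2 overlaps EXOSC9 at 9.24% of its exon bases, with 2115 and 1370 counts for EXOSC9. CDC25C overlaps FAM53C of the opposite strand at 8.8%, with 3078 and 2332 counts for FAM53C beside 230 and 134 for CDC25C. CENPA overlaps SLC35F6 of the same strand at 7.08%, with 1914 and 1328 counts for SLC35F6 beside 513 and 331 for CENPA. The part of these overlaps in the counts was not tested. The strand setting of the counting is not given in the sources used here.

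The difference between the 2 etoposide libraries shows the spread of each level between libraries, not the effect of the length used. With the longest transcript as the length, 32 of the 36 levels moved by more than 1 SD of their libraries. The ratios to the level with merged exons ran from 0.753 for CCNA2 to 1.51 for CDK1. The library difference was tested with a two-sided exact binomial test of each gene's counts under TMM scaling. It was adjusted by Benjamini-Hochberg over 17207 genes, and compares these libraries rather than conditions. Log2 ratios of library 1 over library 2 ran from -0.15 for AURKB to 0.24 for CDC25C, with a median of 0.05 and an SD of 0.11. The SD was 0.34 over all genes tested and 0.23 over the 12839 other genes in the same range of counts. That range is wide, from PRC1 (58 and 40 counts) to FOXM1 (6930 and 5162 counts). Genes were not matched by count within it, so the SDs are not a comparison at like counts. Higher in library 1 at an adjusted p under 0.05 were 8 of the 36 (22.2%), beside 11.7% of all genes tested. Higher in library 2 was 1 gene (2.78%), beside 7.96% of all. In either direction 25% of the 36 were called, near the 22.25% of the other genes in the same range of counts. Over all genes tested the share was 19.64%. More than 2-fold apart were 0 of the 36, beside 2.12% of all. The split of 8 against 1 depended on the scaling, since by total counts it was 3 against 4.

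The genes higher in library 1 were PTTG1, BIRC5, MAD2L1, UBE2C, CCNB1, CDK1, KIF2C and CDC20. PTTG1 had 2503 and 1471 counts, a log2 ratio of 0.22 (95% interval 0.13 to 0.32, exact binomial adjusted p = 4.13e-05). BIRC5 had 5232 and 3173 counts, a log2 ratio of 0.18 (0.12 to 0.24, adjusted p = 9.64e-07). These intervals cover counting error only. FOXM1, the gene higher in library 2, had 6930 and 5162 counts and a log2 ratio of -0.12 (-0.17 to -0.07, adjusted p = 0.000163). All 9 differences were small beside the range of levels among the 36 genes. Across the 36 genes the log2 ratio fell with the log2 of exon length (Pearson r = -0.35, Spearman rho = -0.36), as it did over the 104 other G2 and mitosis genes (r = -0.39, rho = -0.40), and less so over all expressed genes (r = -0.03, rho = -0.16). These are descriptions across genes of the same 2 libraries.

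**Figure D5:**
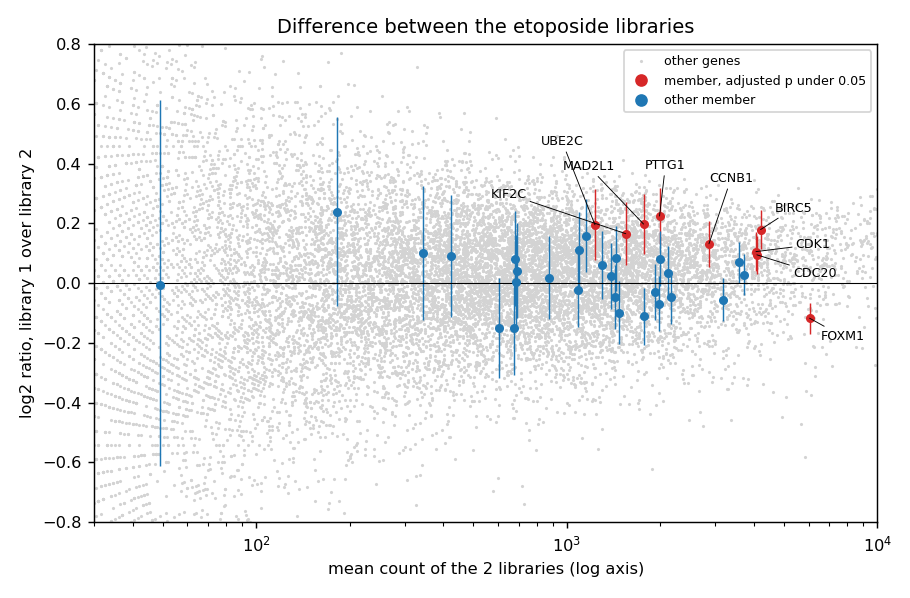
Log2 ratio of library 1 over library 2 (TMM scaling) against the mean count of the 2 etoposide libraries on a log axis, with 95% intervals from counting for the 36 genes and grey points for other genes, of which those outside the axes are not drawn. The 9 genes with an adjusted p under 0.05 are red and named, and they lie between -0.12 (FOXM1) and 0.22 (PTTG1).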

How the data were processed

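RNA-Seq libraries of U2OS cells (2 each for control, Adriamycin and etoposide) were grouped by their labels. The authors aligned reads to GRCh38 and deposited raw counts per Ensembl gene. The submitters' processing notes name HISAT2 2.1.0, featureCounts of Subread 2.0.0 and DESeq2 1.30.1. Each etoposide table held 67140 genes. The control and Adriamycin tables used here held 220 to 292 genes each, 0 of them among the 36, and an incomplete last line was left out, so the planned description was confined to etoposide.

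Symbols and exon lengths came from GENCODE release 44 (60357 of 67140 identifiers matched, and the rest held 0.0411% and 0.0445% of the counts). TPM was computed from counts per merged exon length, and genes with at least 10 counts in both libraries were ranked. The libraries were compared with an exact binomial test (scipy 1.17.1, statsmodels 0.14.6) under edgeR 4.0.16 TMM scaling (R 4.3.3), with Benjamini-Hochberg adjustment. The test was tried on simulated counts that held counting error alone, which is the model it assumes. That trial cannot show how the test behaves with further spread between libraries. DESeq2 1.42.0 size factors were an alternative. Other steps used pandas 2.3.3 and numpy 2.4.6 under Python 3.11.15, and matplotlib 3.10.9 for figures, and copies were aligned with blastn 2.17.0. Promoter sequences are from RefSeq, GRCh38.p14.

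The genes and lists were chosen with earlier results of these data known. Named by rule were all 36 genes, their paralog families, the 2 highest and the lowest gene of each other group, and copies with at least 10 counts in a library. Others (cell type markers, the closest copies, OIP5 and overlapping genes) were named after their values were seen. A planned protein identity of paralogs was not computed, because no protein table was used here. Total counts limit the precision of each level, and intervals cover counting error only.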

Additional observations from a re-analysis of the deposited data

How the results depend on the processing

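The median level of the 36 genes (63.1 TPM) was 69.5 TPM when only protein-coding genes entered the sum and 48.3 TPM on exon bases of 1 gene alone, an alternative chosen after seeing the data. It was 61.0 TPM with the longest transcript, and 61.4 to 65.9 TPM with one etoposide library left out at a time. Among single genes, PRC1 rose 2.002 times on exon bases of 1 gene and CDK1 1.51 times with the longest transcript. Genes above the upper quartile numbered 30, with 23 when only protein-coding genes were ranked and 21 when genes with at least 50 counts were ranked. Genes above the median numbered 34, and 32 to 35 over the alternatives. Of the 36, 8 were higher in library 1 and 1 in library 2. By total counts these were 3 and 4. At an adjusted p under 0.01, 5 were higher in library 1, and at an unadjusted p under 0.05, 2 were higher in library 2. CCAAT on the strand of the gene was found in 14 genes (50%) instead of 25 (89.3%). Over all genes the share was 23.26% instead of 39.72%, and 45.16% of the replication genes held it on that strand. The fall of the median to 48.3 TPM on exon bases of 1 gene came with the scaling to a fixed sum. Of the 36 genes, 24 had 100% of their exon bases to themselves and kept their length. CDC20, 1 of these, went from 394.6 to 301.5 TPM, and the ratio to the main level had a median of 0.7642 over the 36. The cause of the other shifts was not tested, beyond the change of length, scaling or strand itself. The order of CCNB1 and CDK1 turned with the longest transcript (CDK1 at 1.47 and 1.49 times CCNB1, against 0.876 and 0.892 times with merged exons). Other ratios moved without turning. With the longest transcript AURKB was 2.015 and 2.016 times AURKA, PLK2 5.71 and 5.985 times PLK1, and MYBL2 1.409 and 1.207 times FOXM1. On exon bases of 1 gene PKMYT1 was 10.02 and 9.306 times WEE1. No paired analysis was possible because the 36 genes were analysed in the etoposide libraries alone and no test between groups was made. Depth limits PRC1 most, with 58 and 40 counts.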
